A study of Mus musculus with 3 samples.

Results

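The distal RXRA sites described here were chosen by measured values, namely peak calls and fold: they are peaks of the stem cell library that had a fold enrichment below 15, overlapped a peak of both progenitor libraries by at least 1 bp, and had a summit more than 1 kb from either end of every protein-coding gene. They numbered 1484 of the 4047 peaks of that library (36.7%, 95% exact binomial interval 35.2 to 38.2), and the 3 lists together held 53465 peaks. The other 937 common peaks below the fold limit lay within 1 kb of a gene end and are called gene-end sites here. RXRA binding was mapped by CUT&RUN, where a nuclease tethered to the RXRA antibody cuts DNA at the bound protein and the fragments set free are read by sequencing. The single HSC library was made from 10000 haematopoietic stem cells (Lin-cKit+Sca1+CD48-CD150+), and each of the 2 MPP libraries from 50000 multipotent progenitors (Lin-cKit+Sca1+CD150-), all sorted from the bone marrow of C57BL/6 mice. All cells were exposed for 1 h to 1 mM bexarotene, a synthetic ligand of RXR; the dose is that of the labels, and its unit could not be checked here. The mice were about 10 months old and were pooled from 3 or 4 animals. The genotype label reads VavCre+; WT, naming a Cre transgene driven by the blood-cell promoter Vav, while the growth protocol names Rxrabfl/fl (WT) mice. Both name wild type, and whether Cre and floxed alleles were together in the animals used is not given in the sources used here. No library without the drug or with a control antibody was used here.

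RXRA is a nuclear receptor that binds DNA mostly as a heterodimer with partners such as the retinoic acid receptors, the liver X receptors (LXR) and the peroxisome proliferator-activated receptors (PPAR). The dimers contact pairs of the hexamer AGGTCA, and the spacing between both copies differs between partners. Many nuclear receptors bind at enhancers far from the promoters of the genes they control, and in blood progenitors such enhancers are often shared with RUNX1, GATA2, FLI1 and other factors of the so-called heptad. A distal peak is a position and not a target assignment, so each site is given here with the gene that holds its summit, or otherwise with the gene of the nearest end within 100 kb.

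The sites with the most readable local sequence were those at internal or non-coding transcription starts, since sequence was read here only from RefSeq promoter windows (mm10, 250 bp before to 50 bp after a listed start). A window was overlapped by 127 of the 1484 sites (8.56%), and 127 windows were met in all. Printed first is the window of Srebf1, the gene of the lipogenic transcription factor SREBP-1, at a start inside the gene on chromosome 11, minus strand, window chr11:60210422-60210721. It is the LXR target on the gene lists whose start carried a site, and the HSC summit lay 18 bp downstream of that start. The windows of Mga (chr2:119896978-119897277, plus strand), a partner of MAX, and Ncoa4 (chr14:32165336-32165635, plus strand), a nuclear receptor coactivator and ferritin receptor, follow because they belong to the MYC network and coregulator lists. In these 3 windows the capitals mark the closest match to a direct repeat of AGGTCA with 0 to 5 bases between both copies. The last 3 windows, of Gatad2a (chr8:69974334-69974633, minus strand), Slc15a4 (chr5:127617343-127617642, minus strand) and the non-coding gene Gm40093 (chr3:93597455-93597754, minus strand), had the highest HSC fold among those with an exact AGGTCA, which is in capitals. Each sequence runs 5′ to 3′ along the gene.
Srebf1: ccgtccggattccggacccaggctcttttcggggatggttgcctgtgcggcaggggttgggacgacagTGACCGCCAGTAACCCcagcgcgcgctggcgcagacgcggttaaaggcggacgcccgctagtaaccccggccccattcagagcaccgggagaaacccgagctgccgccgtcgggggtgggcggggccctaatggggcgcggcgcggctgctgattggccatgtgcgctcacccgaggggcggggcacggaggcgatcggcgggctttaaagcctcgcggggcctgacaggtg
Mga: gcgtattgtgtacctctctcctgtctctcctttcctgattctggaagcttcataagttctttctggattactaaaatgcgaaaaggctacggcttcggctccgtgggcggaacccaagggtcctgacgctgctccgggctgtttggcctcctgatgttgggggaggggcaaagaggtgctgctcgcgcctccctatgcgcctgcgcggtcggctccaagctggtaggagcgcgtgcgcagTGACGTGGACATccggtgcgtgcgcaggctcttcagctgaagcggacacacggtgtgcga
Ncoa4: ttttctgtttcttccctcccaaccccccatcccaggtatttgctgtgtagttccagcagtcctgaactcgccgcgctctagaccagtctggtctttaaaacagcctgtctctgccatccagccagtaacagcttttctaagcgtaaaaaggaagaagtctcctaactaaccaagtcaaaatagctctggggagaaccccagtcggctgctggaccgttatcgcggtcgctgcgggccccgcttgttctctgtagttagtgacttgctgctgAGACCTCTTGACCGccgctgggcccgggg
Gatad2a: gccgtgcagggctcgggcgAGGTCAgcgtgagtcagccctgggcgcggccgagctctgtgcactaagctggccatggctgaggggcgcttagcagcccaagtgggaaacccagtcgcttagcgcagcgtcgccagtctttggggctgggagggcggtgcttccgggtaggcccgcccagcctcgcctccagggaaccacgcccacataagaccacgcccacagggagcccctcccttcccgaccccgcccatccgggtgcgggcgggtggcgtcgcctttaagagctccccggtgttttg
Slc15a4: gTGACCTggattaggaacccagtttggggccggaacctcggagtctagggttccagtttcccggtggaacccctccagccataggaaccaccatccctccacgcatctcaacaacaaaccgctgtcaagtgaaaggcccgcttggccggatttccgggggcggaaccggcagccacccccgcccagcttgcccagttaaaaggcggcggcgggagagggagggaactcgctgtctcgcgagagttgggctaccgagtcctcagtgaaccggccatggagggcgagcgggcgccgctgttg
Gm40093: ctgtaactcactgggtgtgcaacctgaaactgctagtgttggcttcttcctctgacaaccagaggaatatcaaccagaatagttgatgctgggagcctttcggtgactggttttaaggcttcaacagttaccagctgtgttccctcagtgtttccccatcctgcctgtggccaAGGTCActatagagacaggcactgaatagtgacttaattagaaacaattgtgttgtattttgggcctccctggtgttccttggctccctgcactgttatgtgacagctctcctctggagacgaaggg
In the Srebf1 window the closest repeat had 4 bases between the copies (DR4, the spacing known for LXR and RXR dimers) and 3 mismatches. It lay on the opposite strand, at positions -182 to -167 from the start, and read GGGTTACTGGCGGTCA in that orientation. In the Ncoa4 window the closest match was a repeat with 2 bases between the copies and 2 mismatches, and in the Mga window a repeat with no base between them and 3 mismatches. The best repeat in the Gatad2a window, AGGTCAGCGTGAGTCA, was a DR4 with 2 mismatches that contained the exact AGGTCA. It lay at positions -231 to -216 from the start, outside the HSC peak, which spanned chr8:69974261-69974575.

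No exact direct repeat with 0 to 5 bases between the copies was found in the 127 windows, a share of 0% with an upper bound of 2.86% (exact binomial), and among all 32851 windows each spacing was found in 0.00609% to 0.0396%. The half-site AGGTCA was in 22 of the 127 windows (17.3%, 11.19 to 25.04), close to the 16.3% of all windows, and in 9.99% of the 721 windows under gene-end sites. With up to 3 mismatches DR4 was found in 22.05% of the windows and 21.88% of all windows, and DR1 in 22.05% and 24.65%. The AP-1 motif TGANTCA was in 17 windows (13.4%, 8.0 to 20.56), against 7.81% of all windows and 5.69% of the gene-end windows. The ETS motif CCGGAA was in 29.1% (21.4 to 37.9) against 14.9% and 36.8%, and the GC box GGGCGG in 57.5% (48.4 to 66.2) against 35.7% and 73.9%. Median GC content was 60.7% in the 127 windows, 62.0% in the gene-end windows and 52.7% in all windows, and its part in these shares was not tested. The GATA motif AGATAA was in 4.72% of the windows against 11.2% of all. DR0, DR2, DR3 and DR5 with up to 3 mismatches were found in 25.98%, 15.7%, 15.7% and 19.7% of the windows, against 22.03%, 21.7%, 22.4% and 21.7% of all. Other motifs searched included the E-box CACGTG bound by MYC and MAX (11.8% against 7.15%), the RUNX motif TGTGGT (14.96% against 16.76%), the PU.1 motif GAGGAA (31.5% against 28.3%), the E-box CAGCTG (13.4% against 16.3%), the C/EBP motif TTGCNNAA (8.66% against 10.8%) and the HOX and PBX motif TGATTNAT (2.36% against 3.22%). All were searched on both strands; the direct repeats contain AGGTCA, and CCGGAA and GAGGAA share GGAA. These windows hold few of the sites and sit at starts, and the shares describe the windows only.

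The values at the sites came from small numbers of fragments. The authors' fold and p values were solved for the pileup, the number of fragments over the summit, and for the local background; the lowest background in each list was 0.604 fragments for HSC and 2.87 and 1.08 for MPP replicates 1 and 2, and the lowest pileup that was called was 5, 10 and 6. With 1 HSC library nothing was tested between cell types, and intervals cover counting error only. The labels do not say whether the MPP libraries came from separate pools.

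Among the members a subset stood apart by its surroundings. In 108 of the 1484 sites (7.28%, 6.01 to 8.72) the local HSC background was at least 5 times the genome-wide one, and these sites fell into 23 loci. The same class made up 10 of 515 distal HSC peaks that were found in 1 MPP list (1.94%), 7 of 510 found in neither (1.37%) and 4 of 937 gene-end sites (0.427%). A run of 31 such sites lay on chromosome 9 between 3000036 and 3038330, nearest to Alkbh8, with pileups of 136 to 337 for HSC, and 172 to 266 and 113 to 318 for MPP replicates 1 and 2. Their local HSC background was 78.0 to 189 times the genome-wide one and their fold no more than 4.47. Further groups lay near Scaf8 on chromosome 17 (14 sites), Vmn1r2 on chromosome 4 (9), Sfi1 on chromosome 11 (7), Olfr161 on chromosome 16 (6), and Lrrc4c on chromosome 2 and Gm2244 on chromosome 14 (4 each). Of the 108 sites 69 (63.9%) lay in the first 4 Mb of their chromosome, against 27 of the 1376 other sites (1.96%) and 15 of the gene-end sites (1.60%). Mouse chromosomes have their centromere at that end. Results are therefore given with and without the 108 sites where these move them, and the 1376 others are called low-background sites.

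**Figure D1:**
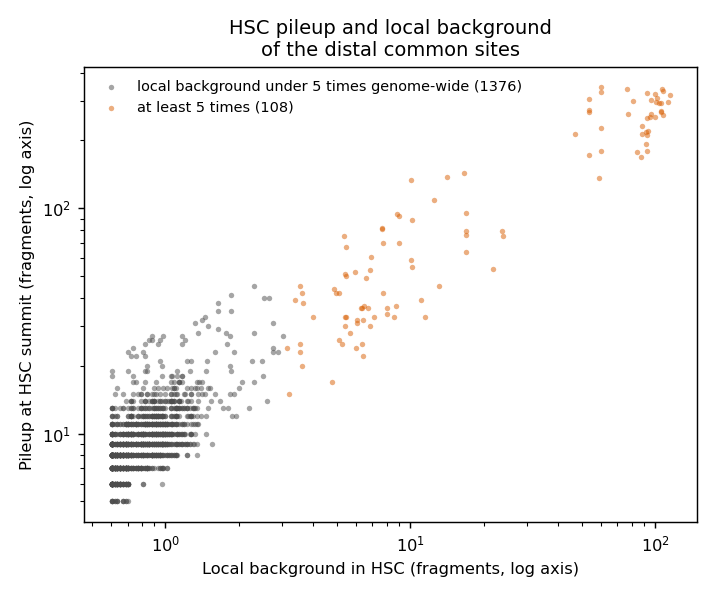
Pileup at the HSC summit against local HSC background, both in fragments on log axes, for the 1484 sites; each point is 1 site and colour separates the 1376 low-background sites from the 108 others. The low-background sites reach at most 45 fragments, and the highest points, up to 344 fragments, all have a raised background.

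The sites were of middling rank in the HSC list and, by percent of list length, ranked higher in both MPP lists. These values describe the peaks that chose the members. By fold the median site stood at the upper 46.5% of the HSC list. It stood at the upper 22.4% of the list of MPP replicate 1 and the upper 27.3% of that of replicate 2. The lists held 4047, 29848 and 19570 peaks, so a rank in percent does not mean the same in each. Gene-end sites also ranked higher in the MPP lists, with medians at the upper 49.7%, 24.7% and 18.7%. The median pileup was 9 fragments for HSC (interquartile range 8 to 12), and 24 (19 to 32) and 18 (14 to 24) in MPP replicates 1 and 2. Median folds were 5.603, 5.427 and 6.727, where the medians of the whole lists were 5.5, 4.39 and 5.65, and median widths 332.5, 388 and 415 bp. In HSC 24.5% of the sites were in the upper 20% of the list by fold (22.3 to 26.7), and 17.1% of gene-end sites were (14.7 to 19.6). In MPP replicate 1 the shares were 44.4% and 45.4%, and in MPP replicate 2 they were 40.23% (37.72 to 42.78) and 51.97% (48.72 to 55.22). The HSC summit was within 100 bp of the MPP replicate 1 summit at 1110 sites (74.8%) and of the replicate 2 summit at 1119 (75.4%), with median distances of 50 and 44 bp. The overlap by which the sites were chosen already holds summits close, and at gene-end sites the shares were 69.3% and 75.2%. Over the 1376 low-background sites, Spearman's rho of fold was 0.22 between HSC and MPP replicate 1, 0.25 between HSC and replicate 2, and 0.50 between both MPP libraries, as a description over sites that are not independent samples. The 1484 sites met 1471 distinct peaks of MPP replicate 1 and 1474 of replicate 2, so a few neighbouring sites shared a partner peak.

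Of the 2509 distal HSC peaks below the fold limit, the members were the 59.1% found in both MPP lists, 515 were in 1 list and 510 in neither. The limit left out 72 common peaks, 68 of them distal. Just inside it were the sites nearest to Fam107a (fold 14.9) and Aadac (14.8), and just outside it those at Cdk8 (15.1) and Dock2 (15.3). On the distance rule the closest members lay 1024 bp from an end of Glt28d2 and 1039 bp from Hspb7, and the nearest peaks left out lay 974 bp from Sspn and 958 bp from Sfr1.

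The sites lay more often in and near genes than distal bases do, but the share inside genes depended on the setting. At a q of at most 1e-05 it was 36.1%, below that of distal bases. There 100 of the 449 sites were high-background ones, and 44.7% of the other 349 lay inside genes. With each MPP list held to the length of the HSC list the share was 46.5%. Summits of 695 sites lay inside a protein-coding gene (46.8%, 44.3 to 49.4), and 688 of the 1376 low-background sites did (50.0%, 47.3 to 52.7). Of all bases more than 1 kb from a gene end, 38.6% lie inside a protein-coding gene. The share was 49.1% (44.7 to 53.5) for the distal HSC peaks found in 1 MPP list and 46.3% (41.9 to 50.7) for those in neither, intervals that overlap that of the members. The median distance to the nearest gene end was 20556 bp, and 18264 bp for low-background sites. Sites 1 to 5 kb from an end made up 16.91% (15.04 to 18.92) where such bases make up 9.61% of the distal genome, and sites 5 to 10 kb away 14.96% against 8.67%. Sites over 100 kb away made up 14.2% (12.4 to 16.0), or 10.6% of the low-background sites, against 38.3% of distal bases. That last figure counts unsequenced stretches at the start of each chromosome. These stretches are also in the total over which the other shares of distal bases were taken. Within genes of known strand, 572 sites divided over 4 equal parts of the gene, from start to end, as 27.8%, 30.1%, 22.9% and 19.2%.

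**Figure D2:**
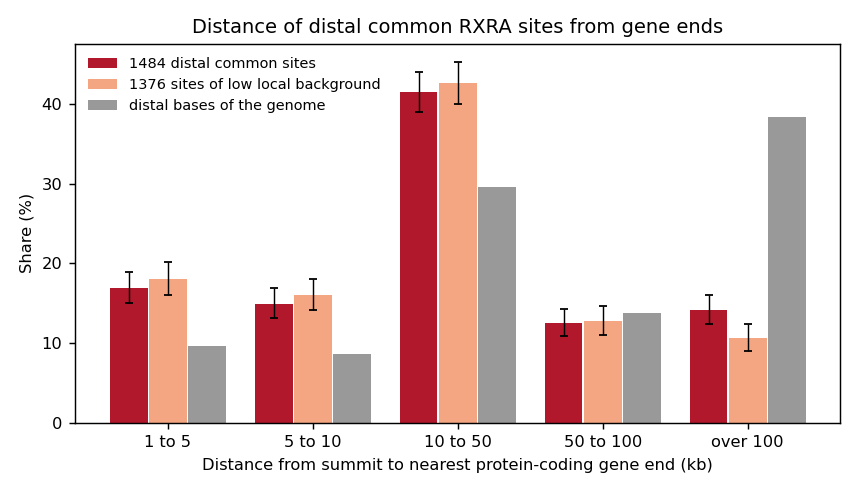
Share of sites, in percent, by distance from the summit to the nearest protein-coding gene end, for all 1484 sites, for the 1376 low-background sites and for all distal bases of the annotated genome; error bars are exact binomial 95% intervals. The sites exceed the genome in the bins up to 50 kb and fall below it beyond 100 kb.

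Counted by gene, 1136 of 21900 protein-coding genes (5.19%) had a distal common site, 1124 (5.13%) had a low-background one, and 634 (2.89%) held one inside the gene. With the nearest end allowed up to 20 kb away, 933 genes (4.26%) had one. Gene-end sites were found at 1115 genes (5.09%), and 62 genes had both kinds, 5.46% of the genes with a distal site and 5.56% of those with a gene-end site, near the 5.09% and 5.19% of all genes. A single low-background site was assigned to 993 genes, while 112 genes had 2, 18 had 3 and 1 had 4. That last gene, Gm45988, also had 4 high-background sites, in the stretch chr7:64073378-64086708. Its low-background sites at chr7:64073378-64073689 and chr7:64073867-64074268 lay in the same stretch. Their local HSC backgrounds were raised, at 2.25 and 2.60 fragments.

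The sites of highest fold lay near genes of varied function. Where fragments are given as 3 values, they stand for HSC, MPP replicate 1 and MPP replicate 2. The site of highest HSC fold lay 9609 bp from Fam107a, a gene of an actin-associated protein, at chr14:8286556-8286901, with 27 HSC fragments (95% Poisson interval 17.8 to 39.3), then 63 (48.4 to 80.6) and 47 (34.5 to 62.5) in MPP replicates 1 and 2. It ranked in the upper 1.83% of each list, which was the best worst rank of all the sites. The site near Csmd1, 372653 bp from its end at chr8:15519770-15520121, had 24, 74 and 74 fragments. The other sites of the highest 10 were nearest to Aadac, P4ha2, Neto1, Frmd4a, Fam171a1, Pdgfc and Stmn2, with 1 inside Ankar. That of Aadac, an arylacetamide deacetylase, had 38, 148 and 42 fragments, and that of P4ha2, a collagen prolyl hydroxylase, had 41, 99 and 61. The Pdgfc site was strong in the HSC list, at the upper 2.13%, and reached only the upper 12.49% and 27.28% in the MPP lists. Apool, Ppp1r9a and Samd9l completed the 10 best worst ranks, and the Samd9l site had 32, 76 and 92 fragments. Of the 10 sites of highest HSC fold 2 lay in the first 4 Mb of their chromosome, near Frmd4a and Fam171a1, and of the 10 best worst ranks 3 did.

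Distance was measured to protein-coding genes, a class that leaves out the gene segments of antigen receptors. The 4 farthest sites, 1030942 to 1035077 bp from Lrrc4c on chromosome 2, were high-background sites with 180 to 344 HSC fragments at a local background 99.6 to 99.8 times the genome-wide one. The farthest low-background site lay 942194 bp from Zfp386 at chr12:115105419-115105740, with 15, 37 and 11 fragments. Sites at 882110 and 735649 bp from the same gene had 7, 21 and 18 and 9, 35 and 15 fragments. All 3 lie among the variable segments of the immunoglobulin heavy chain: 10 listed segments stood within 100 kb of each, and the peaks at 882110 and 735649 bp overlapped Ighv8-6 and Ighv1-58. The site 827793 bp from Dad1 (7, 20 and 10 fragments) lay among variable segments of the T cell receptor alpha chain, 10324 bp from Trav4-2, with 19 segments within 100 kb. The others of the 10, with no such segment within 100 kb, lay 696743 bp from Neto1 (26, 71 and 53) and 693118 bp from Diaph2 on the X chromosome (18, 30 and 21).

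The count of each gene list below is to be read against the 5.19% of all genes with a distal site and the 5.09% with a gene-end site. The list counts depend on how strict the peak lists are: at a q of at most 1e-05 or with each MPP list held to the length of the HSC list, 18 of the 22 counts moved by over 1.5 times under each setting, while the share of all genes fell to 1.40% and 1.35%. The heptad is the group of transcription factors that together occupy enhancers of stem and progenitor genes. Of its 7 genes 3 had a distal common site, Runx1, Gata2 and Fli1, against 5.19% of all genes, and none of the 7 had a gene-end site. Tal1, Lyl1, Lmo2 and Erg had neither. Runx1, the core-binding factor needed to make stem cells, held 3 sites inside the gene. The site nearest its upstream start lay 24296 bp downstream of that start at chr16:92801700-92802012, in the intron known for a stem cell enhancer of the gene, with 8 HSC fragments (3.45 to 15.8), then 24 (15.4 to 35.7) and 26 (16.98 to 38.1) in MPP replicates 1 and 2. The others lay 172032 bp (7, 24 and 10 fragments) and 205236 bp (14, 19 and 17) downstream of it. Gata2, a zinc-finger factor of stem cell maintenance, had a site 4089 bp upstream of its start with 11, 25 and 11 fragments. Fli1, an ETS factor, had one 12970 bp outside the gene with 9, 28 and 11. None of these 5 sites was near the top of its lists, and the best rank was the upper 6.35%, of Fli1 in MPP replicate 1.

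Among the other stem cell regulators 5 of 30 had a distal site and 1, Sox4, a gene-end site. Meis1, a homeobox cofactor of HOX proteins, held 2 sites, 48937 and 93923 bp downstream of its start. The farther one had 13 HSC fragments (6.92 to 22.2), then 40 (28.6 to 54.5) and 25 (16.2 to 36.9) in MPP replicates 1 and 2, within the upper 0.536% and 1.98% of both MPP lists and the upper 24.6% of the HSC list. Ikzf1, the lymphoid regulator Ikaros, had a site on its upstream side, 27733 bp from the gene, with 11, 21 and 22 fragments. The nuclear factor I genes Nfia and Nfix each held 1 site (8, 26 and 17, and 7, 39 and 18 fragments), and Bcl11a, a repressor of fetal globin, had one beyond its far end (6, 20 and 12).

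**Figure D3:**
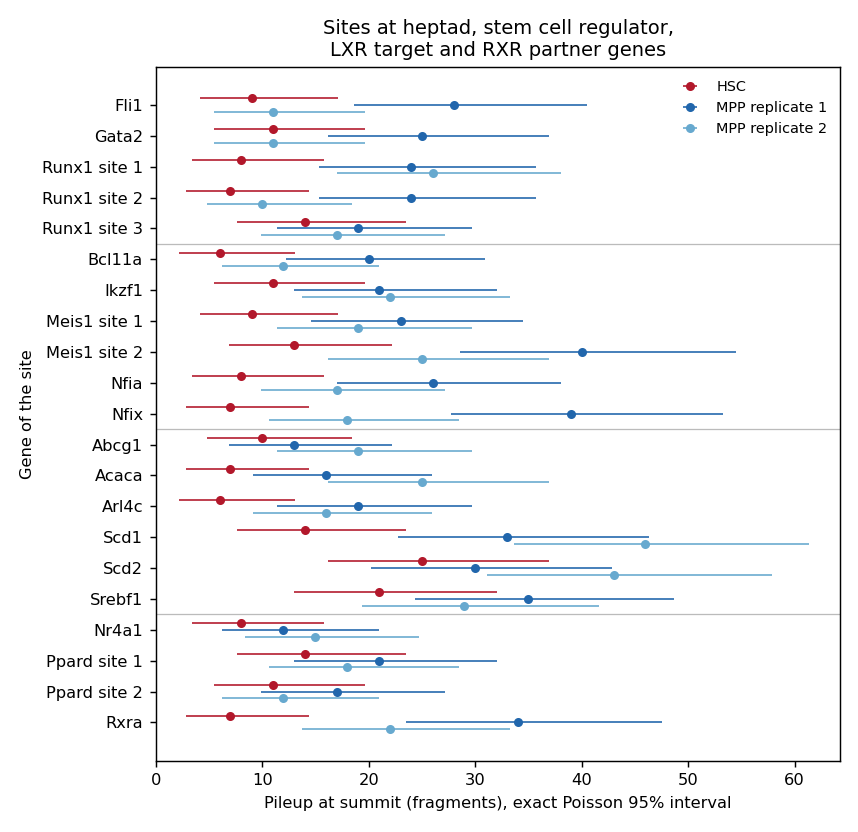
Pileup at the summit in fragments, with exact Poisson 95% intervals, for the 21 sites of 17 genes on the heptad, stem cell regulator, LXR target and RXR partner lists, in that order from the top; each colour is 1 library, numbered sites of a gene run from the nearest to the farthest from its first listed start. HSC values run from 6 to 25 fragments, MPP replicate 1 from 12 to 40 and MPP replicate 2 from 10 to 46, and the libraries differ in depth.

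Genes of mature lineages were also represented. Of 20 myeloid factors 5 had a distal site, namely Id2 with 2 sites, Batf3, Cebpe, Cebpb and Maf, and 2 (Spi1 and Nfe2) a gene-end site. The Cebpe site, near the granulocyte factor C/EBP epsilon, lay 4379 bp from the gene with 9, 18 and 13 fragments, whereas those of Cebpb, Id2 and Maf lay 84637 to 94457 bp away. The farther Id2 site had its summit 295 bp from a start of the long non-coding RNA Gm36496. With sites more than 1 kb from every annotated gene the myeloid count was 4. Of 22 lymphoid factors 4 had one: Id1, an inhibitor of E proteins, at 4177 bp from the gene (12, 27 and 26 fragments), Notch1 at 9602 bp upstream of its start (8, 37 and 28), and Bach2 and Tox inside the gene. Of 20 erythroid and megakaryocyte genes 1 had one, Itga2b, the platelet integrin subunit that is also found on early progenitors, with 7, 32 and 13 fragments.

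Of 34 cytokine and growth factor receptors 8 had a distal site (23.5%, 10.7 to 41.2, against 5.19% of all genes) and 3 a gene-end site. Flt3, the receptor that marks the step from stem cells to lymphoid-primed progenitors, held 2 sites inside the gene, with 11, 30 and 18 and with 8, 27 and 19 fragments. The interferon receptor genes Ifnar1, Ifnar2 and Ifngr1 each had a site outside the gene, that of Ifnar1 at chr16:91523009-91523388 with 14 HSC fragments (7.65 to 23.5), then 46 (33.7 to 61.4) and 31 (21.1 to 44.0) in MPP replicates 1 and 2. The Ifnar2 site was weak in HSC, at the upper 97.7% of the list (5, 27 and 19), and that of Ifngr1 had 10, 16 and 11. Ifnar2 and Ifngr1 also had a gene-end site. The Csf2ra site ranked in the upper 0.251% and 0.337% of both MPP lists with 53 and 42 fragments and had 10 in HSC. Cxcr4, the chemokine receptor that retains stem cells in marrow, had a site 22941 bp upstream of its start (10, 14 and 14), and Il6ra and Tnfrsf1b each held one. Of 20 surface markers 4 had a distal site, Fgd5, Cd44, Cd9 and Ptprc. The Fgd5 site lay 6573 bp from this stem cell marker gene, on its upstream side, with 10, 23 and 11 fragments.

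LXR target genes act in cholesterol efflux and fatty acid synthesis and are bound by the LXR and RXR dimer. Of the 18 on the list 6 had a distal common site and 3 (Abca1, Lpcat3 and Abca7) a gene-end site. The Srebf1 site, whose sequence is given above, spanned chr11:60210340-60210891 and had 21 HSC fragments (13.0 to 32.1), then 35 (24.4 to 48.7) and 29 (19.4 to 41.6) in MPP replicates 1 and 2. It lay 12128 bp downstream of the first listed start of the gene, at the start known for the SREBP-1c form, whose promoter is known for its LXR elements. The stearoyl-CoA desaturase genes Scd1 and Scd2 both lie on chromosome 19. The Scd2 site, 9405 bp from its gene, had 25, 30 and 43 fragments and ranked in the upper 4.23%, 9.44% and 2.59% of the lists. That site also lay 574 bp from an end of the long non-coding RNA gene Gm41853. The Scd1 site, 5803 bp from its gene, had 14, 33 and 46 fragments. Abcg1, a cholesterol exporter, held a site 1088 bp inside one end with 10, 13 and 19 fragments, which was among the weakest of MPP replicate 1 at rank 29586 of 29848. Acaca (7, 16 and 25) and Arl4c (6, 19 and 16) completed the list, and Abcg5, Abcg8, Fasn, Mylip and Apoe were among those without a distal site.

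Of the 22 genes for RXR and its partner receptors 3 had a distal site (13.6%, 2.91 to 34.9) and 1, Nr1h2, a gene-end site; without MPP replicate 2 the count was 5. Rxra itself held a site 63191 bp downstream of its first listed start at chr2:27740320-27740597, with 7 HSC fragments (2.81 to 14.4), then 34 (23.5 to 47.5) and 22 (13.8 to 33.3) in MPP replicates 1 and 2. Ppard, the PPAR delta gene, held 2 sites (14, 21 and 18, and 11, 17 and 12 fragments), and the orphan receptor gene Nr4a1 had one outside the gene (8, 12 and 15). Rxrb and Rara had no distal common site. Of 17 coregulators 2 had one, among them Ncoa4 with 8, 24 and 17 fragments. Of 16 retinoic acid receptor targets 2 had one, Dhrs3, a retinaldehyde reductase (8, 15 and 11), and Ccr9, a gut-homing chemokine receptor (7, 26 and 15). Of 20 PPAR targets 1 had a distal site (2 without MPP replicate 1), Ehhadh, a peroxisomal enzyme (7, 27 and 21), and 4 (Cpt2, Acadm, Ucp2 and Ech1) a gene-end site. The summit of the Ehhadh site lay at -122 bp from a start of the long non-coding RNA 1300002E11Rik. With sites more than 1 kb from every annotated gene the PPAR target count was 0.

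MYC and MAX bind E-boxes as a dimer, and the series' title names the MYC pathway. Of 16 genes of the MYC network 2 had a distal site: Max, 57841 bp from the gene on its upstream side (9, 21 and 19 fragments), and Mga, whose summit lay at -38 bp from the internal start printed above (9, 20 and 13). No site was assigned to Myc. The region downstream of Myc held 3 HSC peaks up to 2.01 Mb from its start, and 1 of them was common to all libraries, 1.66 Mb from the start at chr15:63648216-63648517. It had 10 HSC fragments (4.80 to 18.4), then 16 (9.145 to 25.98) and 17 (9.90 to 27.2) in MPP replicates 1 and 2, and its nearest protein-coding gene end was that of Gsdmc at 127674 bp. This desert is known for an enhancer cluster that drives Myc in blood stem and progenitor cells; whether the site lies within one of its elements was not tested. Of 25 MYC target genes none had a distal site and 9 had a gene-end site.

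Among signalling and chromatin genes, AP-1 and related factors had 4 of 13 with a distal site (30.8%, 9.09 to 61.4), and none at the stricter q or with equal list lengths. The site of Fos, an immediate-early AP-1 subunit, lay 18884 bp upstream of its start with 9, 20 and 21 fragments, that of Fosb 6597 bp from the gene with 13, 22 and 51, and Batf and Mafk each held one. Of 29 interferon and inflammation genes 5 had a distal site, among them Irf2 with 2, and Jak2, Tlr2 and Tnfaip3 with 1 each, Tnfaip3 being the gene of the NF-kB inhibitor A20, whose site lay 57406 bp from its end (12, 15 and 14). Of 26 chromatin modifiers 5 had one and none a gene-end site. Jarid2, a cofactor of Polycomb repressive complex 2, held the site of highest HSC fold among the list genes, at chr13:44869489-44869903, with 28 HSC fragments (18.6 to 40.5), then 81 (64.33 to 100.7) and 64 (49.3 to 81.7) in MPP replicates 1 and 2. Dnmt3a, the DNA methyltransferase often mutated in clonal haematopoiesis, held 2 (9, 20 and 21, and 13, 18 and 20), as did Arid1b, while Dot1l had 1 inside and 1 upstream, and Smarca2 held 1. Of 26 cell cycle genes 3 had one, a count of 6 without MPP replicate 1 and of 1 with summits held to within 200 bp: Cdkn1a, the inhibitor p21, inside the gene 4554 bp from its first listed start (11, 32 and 21), Ccne1 and E2f2.

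Lists outside blood and a housekeeping list had counts whose intervals hold the 5.19% of all genes. This does not set them apart, since the intervals of several lists above hold it too. Among these were the erythroid and megakaryocyte (0.127 to 24.9), RXR partner (2.91 to 34.9) and cell cycle lists (2.45 to 30.2). The coregulator, retinoic acid target, PPAR target, MYC network and MYC target lists were others. So was the lymphoid factor list, narrowly, with a lower bound of 5.1867% against 5.1872% of all genes. Of 20 neuron genes 2 had a distal site, Dlgap1 with 2 and Rbfox3 with 1, and 4 had one without MPP replicate 2; of 20 muscle genes 1, Neb; and of 20 hepatocyte genes none. Of 30 ribosomal protein genes none had a distal site and 5 a gene-end site. List genes differ in length, and a longer gene has more room for a site: per Mb of distal sequence assigned to the genes there were 0.715 sites for all genes, 4.85 for the heptad, 5.59 for AP-1 factors, 3.97 for LXR targets, 2.41 for receptors, 1.84 for chromatin modifiers, 1.12 for stem cell regulators, 0.936 for lymphoid factors, 0.873 for PPAR targets, 0.575 for coregulators, 0.266 for muscle genes and 0.240 for neuron genes, whose median span was 370 kb against 17.1 kb for all genes. The values of the heptad, AP-1 factors and LXR targets rest on 5, 4 and 6 sites and have no interval. In the heptad 3 of the sites were those of Runx1. No high-background site was among the list genes. The lists were chosen with results of these data known, so the counts describe the lists and are not independent evidence.

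**Figure D4:**
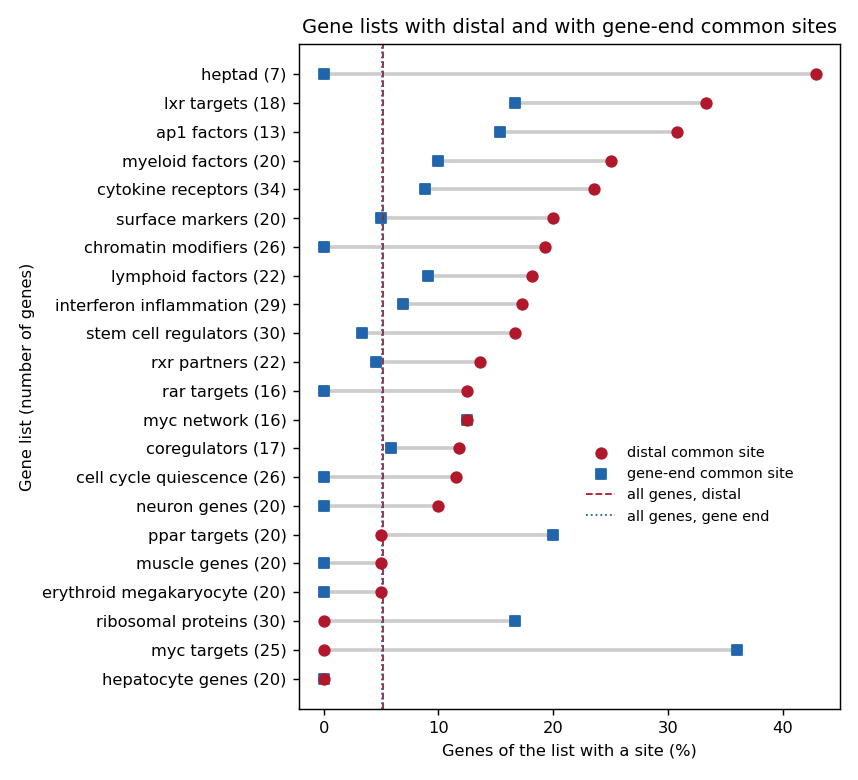
Percent of the genes of each list with a distal common site (circles) and with a common site within 1 kb of a gene end (squares), with the number of genes in brackets; the vertical lines mark all protein-coding genes, 5.19% and 5.09%. The heptad and LXR targets have the highest distal shares, MYC targets the highest gene-end share with no distal site, and small lists make single genes count for several percent.

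Several genes had more than 1 site. By number alone the top were Scaf8 and Gm45988 with 8 each and Sfi1 with 7, but all sites of Scaf8 and Sfi1 and 4 of Gm45988 were high-background sites, as were all 3 of Tmem267. The remaining genes of the top 10 were Vmn1r2 with 5 sites, Gm40035 with 4, and Cuedc1, B4galt5, Mdm1 and Tmcc3 with 3. Counting low-background sites alone, 19 genes had 3 or more, a set chosen after its values were seen. It included Runx1, Smad3 and Ski, with Smad3 an effector and Ski a repressor of TGF-beta signalling, the T cell kinase gene Prkcq, its neighbour Pfkfb3, a regulator of glycolysis, Creb5, Itpkb, Def6 and Adgrg1. The 3 Smad3 sites lay 36275, 41561 and 51556 bp downstream of the start and had 10 fragments each in HSC, 23 to 35 in MPP replicate 1 and 26 to 34 in replicate 2. The 3 Ski sites, also inside the gene, had 8, 9 and 14 fragments in HSC, 25, 16 and 20 in MPP replicate 1 and 21, 16 and 22 in replicate 2. Adgrg1, the stem cell surface receptor GPR56, had sites 9809 and 1332 bp outside the gene on its upstream side and one inside it, with 10, 9 and 15 fragments in HSC and 20, 21 and 26 in MPP replicate 1. Sites joined over gaps of up to 12.5 kb gave 71 clusters of 2 or more and 20 of 3 or more, but with low-background sites only 51 and 6, none with more than 3 sites. The 6 were at Def6, Smad3, B4galt5, Gdi2, Irf2bpl with Lrrc74a, and Egr3 with Pebp4. The Gdi2 sites, at chr13:3372829-3374409, were just under the limit of 5 for local background. Theirs was 4.53 to 4.76 times the genome-wide one, with 23 to 31 fragments in HSC.

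Some sites that are distal by gene ends lay at other annotated starts. Within 500 bp of a listed start of a protein-coding gene were 90 sites (6.06%, 4.90 to 7.40), at a median of 110 bp, and within 500 bp of a start of a long non-coding RNA were 56 (3.77%), or 139 (9.37%) for either. Beside Srebf1, those of highest HSC fold were at C2cd2 (13, 45 and 28 fragments, 64 bp downstream of the start), Atp2b2, a calcium pump gene (13, 24 and 7), and Zer1 (12, 16 and 11). Hnrnpu, a nuclear RNA-binding protein gene, had its summit at -4 bp from a start (12, 28 and 19), and Fth1, the ferritin heavy chain gene, at -49 bp from one (11, 34 and 29). Among long non-coding RNAs, the start of Gm19385, 66541 bp from an end of Ctnnb1, had a site with 13, 33 and 19 fragments. Within 1 kb of any non-coding gene or pseudogene lay 145 sites, 127 without pseudogenes. These were 113 at long non-coding RNAs, 6 at small nuclear RNA genes (Rnu1a1, Rnu2-10 and Rnu11 among them), 2 each at microRNA, tRNA and small nucleolar RNA genes, and 1 each at the 7SL gene Rn7s2 and a 5S ribosomal RNA gene. Of the microRNAs, Mir210, which is induced by low oxygen, had a site 395 bp away with 8, 14 and 17 fragments, while the site at Mir101c was 1 of the high-background run on chromosome 9.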

How the data were processed

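RXRA CUT&RUN was deposited as 1 peak list per library. Per the submitters' processing notes, peaks refer to mm10, and MACS2 2.1.4, Bowtie2 2.3.4.1, Trim Galore 0.4.2 and cutadapt 1.9.1 were named, with settings and any control not given in the sources used. The authors' deposited values are a score per peak, a fold enrichment ratio at the summit, −log10 p-values and −log10 q-values, and the summit offset in bp. No read totals are given, so depth was read through the peaks: p was read as a Poisson tail and fold as the quotient of pileup and background after adding 1 to each, which gave a whole pileup to within 0.001 in −log10 p for at least 99.975% of peaks. The recovery, overlaps (bedtools 2.31.1) and motif search were checked on simulated or independent output with Python 3.11.15, SciPy 1.17.1 and pandas 2.3.3. Fold was used within lists only.

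Genes were those of a RefSeq table of GRCm38.p6, which is mm10 (21900 protein-coding), and sequences came from RefSeq promoter windows; the genome was not used here, so planned motif windows around summits were replaced by promoter windows. Each site went to the genes holding its summit, otherwise to the nearest end within 100 kb. The members and the 22 gene lists (468 of 469 genes found) were chosen with earlier results of these data known. Sites named are the 10 of highest HSC fold, the 10 of best worst rank and the 10 farthest from a gene end; genes named are the 10 with most sites, up to 4 per list, all heptad genes, and Rxra, Rxrb, Rara and Myc. Others, such as further list members, genes with 3 or more sites and sites at starts or non-coding genes, were chosen after their values were seen. Intervals are exact binomial (Clopper-Pearson, 95%) for shares and exact Poisson for pileups. With 1 HSC library no test was made and no p-value is given. Alternatives were another overlap rule, a q of 1e-05, equal list lengths, distances of 5 and 10 kb, all annotated genes, no fold limit, leaving out each MPP library and other assignments. Leaving out high-background sites was added after seeing the data. A few list members and sites are not reported here.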

Additional observations from a re-analysis of the deposited data

How the results depend on the processing

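The number of sites, 1484, lay between 1011 and 1552 under 50% coverage, summits within 200 bp, distances over 5 or 10 kb, all annotated genes, no fold limit or removal of high-background sites, and was 1687 without MPP replicate 1 and 1796 without MPP replicate 2. It fell to 449 at a q of at most 1e-05 and to 346 with each MPP list held to the length of the HSC list. Under these 2 settings 306 and 296 genes had a site (1.40% and 1.35% of all), and 39 and 23 sites lay at non-coding genes. Of the 471 list entries 15 and 13 had one (3.18% and 2.76%), against 66 or 14.0% under the main rule. Beyond 10 kb the values were 719 genes, 41 list entries and 78 sites at non-coding genes, with 43.2% of sites inside genes. The share inside genes was 36.1% at the stricter q, below the 38.6% of distal bases; there 100 of the 449 sites were high-background ones and 44.7% of the other 349 lay inside genes. With the main rule and without high-background sites it was 50.0%. Only sites inside the gene left 634 genes and 31 list entries, and counting all annotated genes left 0 sites at non-coding genes by construction. The heptad count of 3 was 1 at the stricter q, 0 with equal list lengths and 1 inside genes only. Under the first 2 settings receptors and LXR targets had 3 each, and AP-1, interferon, surface marker, cell cycle, MYC network, retinoic acid target and neuron lists 0. Without MPP replicate 1 or 2, 1273 and 1356 genes had a site, 46.8% and 47.6% of sites lay inside genes, 157 and 146 lay at non-coding genes, and 74 list entries had one under either. No paired analysis was possible because HSC has 1 library and the files are peak lists without values at fixed regions; the planned motif windows around summits were not run. A pileup of 9 fragments has an interval of 4.12 to 17.1, so HSC values near the median cannot be ordered.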

Other observations

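The X chromosome carried few sites. It held 11 of the 1484 distal common sites, 9 of low local background, or 0.0538 low-background sites per Mb, against 0.372 on chromosome 1, the lowest autosome, and 0.885 on chromosome 11, the highest. The whole HSC list held 58 peaks on the X chromosome, and 8 gene-end sites lay there, with 966 protein-coding genes on it. The labels give no sex for the pooled mice. Among the X chromosome sites were those of Apool, with 33, 90 and 59 fragments, and Diaph2, with 18, 30 and 21.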
